A study of Mus musculus with 6 samples.

Results

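The small leucine-rich proteoglycans are secreted matrix proteins with a core of leucine-rich repeats, most of which carry chains of chondroitin, dermatan or keratan sulfate. The 10 members described here, Dcn, Bgn, Aspn, Lum, Fmod, Prelp, Kera, Omd, Epyc and Ogn, were taken by gene symbol from the 19938 genes of the array table, and all 10 were measured, each by 1 probe set that named no other gene. Their levels were read in cultured mouse enterospheres with and without thyroid hormone.

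Proteins of this family bind fibrillar collagen and set the width and spacing of its fibrils, and several of them also hold growth factors, above all those of the TGF-beta family. They are divided by sequence into classes: Dcn, Bgn and Aspn form class I, Lum, Fmod, Prelp, Kera and Omd class II, and Epyc and Ogn class III. Fibroblasts and other connective tissue cells are their usual source, and they surround the ganglia and muscle of the gut wall as they do in other connective tissue. Thyroid hormone acts through nuclear receptors that raise or lower the transcription of their target genes.

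Enterospheres are spherical cultures in which progenitors of the enteric nervous system, isolated from gut muscle, grow in suspension. Group T3 held 3 samples exposed for 1 day to 3,5,3'-triiodothyronine at 100 nM (the labels write nm), and the control group held 3 samples kept alongside without it. All 6 samples came from newborn C57BL/6 mice (stage P0), with the guts of 3 animals pooled in each. Both groups had been grown with epidermal and fibroblast growth factor for 4 and then 5 days and had spent 1 day in differentiation medium, which contained ascorbic acid-2-phosphate, before the hormone was added. The labels do not say whether the 3 samples of a group were separate cultures beyond the pooling, so p-values reflect the variation among these 6 arrays, which may be partly technical.

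Each sample was read on 1 expression array, deposited as log2 values after robust multi-array averaging. Array medians lay between 6.09 and 6.15, 25th percentiles between 4.47 and 4.53 and 75th percentiles between 8.34 and 8.42. Klf9 and Hr, established thyroid hormone targets, were higher in all 3 T3 samples by 1.86 ± 0.08 and 1.92 ± 0.07 (log2 change ± SE). The spheres carried signal of the labelled cell type and of connective tissue. The mean log2 value of 9 measured progenitor and glia markers was 10.74 to 10.89 in T3 samples and 10.80 to 10.90 in controls, and that of 18 fibroblast and mesenchyme markers was 9.02 to 9.11 in T3 samples and 8.92 to 9.09 in controls. A change in a whole sphere can come from fewer cells of a type or from less RNA per cell, and these cannot be told apart.

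With T3, Kera and Bgn were called as lower and Ogn as higher, and the other 7 members did not pass the test. In 6 fits that each left out 1 array, Kera was called in 6, Bgn in 1 and Ogn, a dim gene, in 0. Calls required an adjusted p under 0.05 (limma, Benjamini-Hochberg over all 19938 genes). Of all genes, 3.10% were called, 2.28% as higher and 0.823% as lower, against 3 of 10 members, 1 higher and 2 lower. The T3 and control values did not overlap for 6 of the 10 members, 4 of them lower and 2 higher, while 19.5% of all genes had groups without overlap, 7.55% lower and 11.9% higher. At an adjusted p under 0.1, 4 members and 4.82% of all genes were called, and at one under 0.01, 1 member and 0.998%. An unadjusted p under 0.05 was reached by 5 members and by 13.7% of all genes. The median log2 change of the members was -0.12, and that of all genes was 0.01. The 10 genes were chosen with earlier results of these data known, so these shares describe the family and are no test of it.

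**Figure D1:**
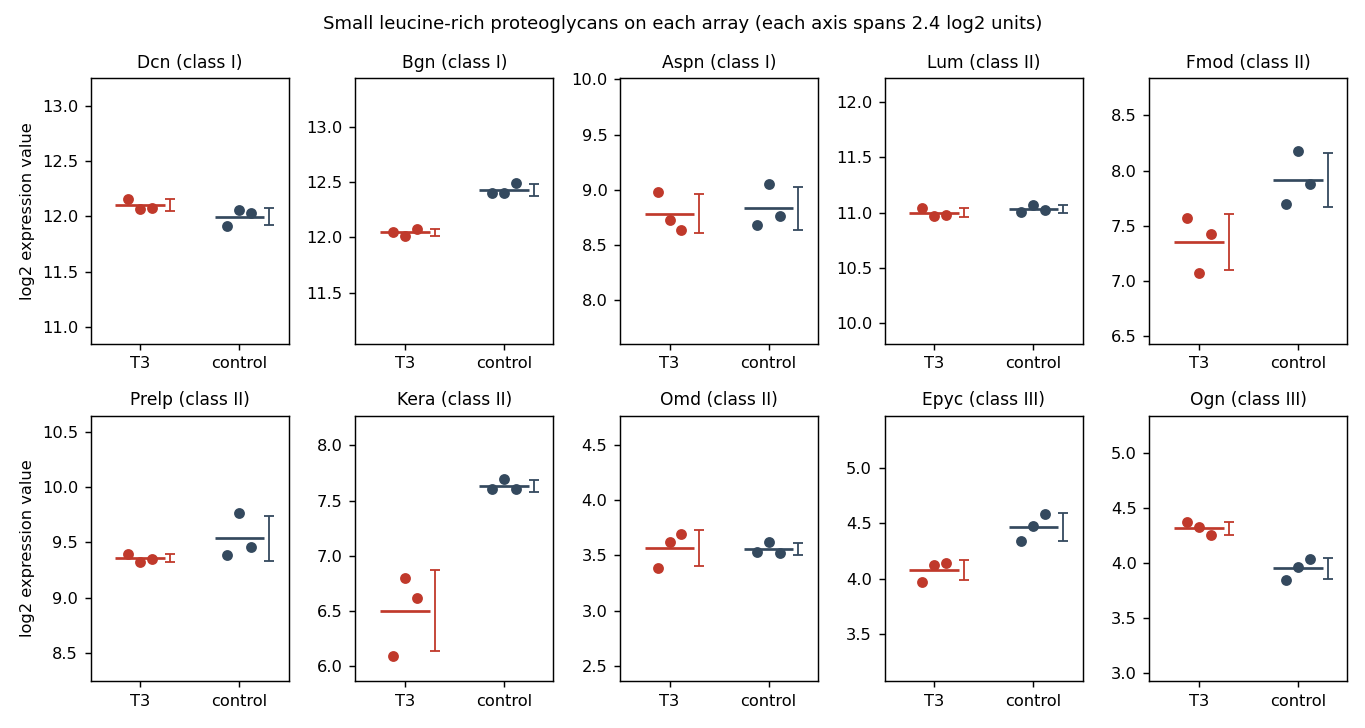
Log2 expression value (y axis) of each of the 10 proteoglycan genes on every array, T3 samples in red and control samples in dark blue; points are arrays, horizontal lines are group means and bars are 1 SD (n = 3). Kera lies between 6.09 and 6.80 in T3 samples and between 7.60 and 7.70 in controls, while the points of Lum and Aspn intermingle.

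Class I holds the proteoglycans that carry chondroitin or dermatan sulfate, with Aspn as a member that lacks such a chain. Bgn encodes biglycan, which binds collagen and TGF-beta and also acts as a danger signal on innate immune receptors. Bgn (probe set 10600169) had log2 values of 12.05, 12.02 and 12.07 in T3 samples, against 12.40, 12.40 and 12.49 in controls. Every T3 value lay below every control value, and the spread within each group was small. The log2 change was -0.39 ± 0.07 (SE), with a 95% interval from -0.54 to -0.23 and adjusted p = 0.021 (limma), which is a 1.31-fold lower signal. The call was kept without control replicate 2 (adjusted p = 0.0335) and lost without any other single array, with adjusted p of up to 0.0982, although the change stayed between -0.40 and -0.36.

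Dcn encodes decorin, the closest relative of biglycan and the founding member of the family. Dcn (probe set 10365974) had log2 values of 12.16, 12.06 and 12.07 in T3 samples, against 11.91, 12.06 and 12.03 in controls. The T3 values were all above the control values, the closest of them by less than 0.01. The log2 change of 0.10 ± 0.07 (SE) did not pass (adjusted p = 0.666, limma), and its interval ran from -0.07 to 0.27, which lies wholly above the interval of Bgn. The difference between the changes of these genes was itself not tested. Aspn encodes asporin, a calcium- and collagen-binding protein that can hold back TGF-beta signalling. Its log2 values were 8.98, 8.73 and 8.64 in T3 samples, against 8.69, 9.06 and 8.76 in controls, so the groups overlapped. The log2 change of Aspn was -0.05 ± 0.12 (SE), with an interval from -0.33 to 0.22, and its sign turned without T3 replicate 3 or control replicate 2.

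Class II holds proteins of which many can carry keratan sulfate. Kera encodes keratocan, best known from the corneal stroma, where its loss flattens the cornea. Kera (probe set 10365987) had log2 values of 6.09, 6.80 and 6.62 in T3 samples, against 7.60, 7.70 and 7.61 in controls. All T3 values were lower, and T3 replicate 1 was the lowest by a clear margin, so that the SD was 0.37 in T3 samples and 0.05 in controls (n = 3 each). The log2 change was -1.13 ± 0.16 (SE), with an interval from -1.50 to -0.77 and adjusted p = 0.00862 (limma), a 2.2-fold lower signal. By size this was the seventh-largest decrease among the genes tested (rank 7). Kera was the only member called without any 1 array, with changes from -1.28 to -0.93 and adjusted p from 0.00503 to 0.0474. The change nearest to 0 was that without T3 replicate 1.

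Fmod encodes fibromodulin, which guides collagen cross-linking and competes with lumican for the same site on the fibril. Its log2 values were 7.57, 7.07 and 7.42 in T3 samples, against 7.70, 8.17 and 7.87 in controls. The groups did not overlap, but both were widely spread, with an SD of 0.26 in T3 samples and 0.24 in controls. The log2 change of -0.56 ± 0.15 (SE) was larger than that of Bgn and did not pass (adjusted p = 0.109, limma). Lum encodes lumican, the keratan sulfate proteoglycan that spaces corneal collagen. Its log2 values were 11.04, 10.97 and 10.98 in T3 samples, against 11.00, 11.07 and 11.03 in controls, which overlapped. The log2 change of Lum was -0.03 ± 0.07 (SE), with an interval from -0.18 to 0.12.

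Prelp encodes a heparin-binding protein that ties basement membranes to collagen. Its log2 values were 9.40, 9.32 and 9.35 in T3 samples, against 9.39, 9.76 and 9.46 in controls, with control replicate 2 as the highest. The log2 change of -0.18 ± 0.10 (SE) did not pass (adjusted p = 0.540, limma). Omd encodes osteomodulin, a protein of mineralised matrix. Its log2 values were 3.39, 3.62 and 3.70 in T3 samples, against 3.53, 3.62 and 3.52 in controls, all below the 25th percentile of the arrays. The deposited values hold no detection calls, so Omd is not known to be above background, and its log2 change was 0.01 ± 0.09 (SE), a value whose sign turned with the scaling.

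Class III members gave dim signal near or below the 25th percentile. Ogn encodes osteoglycin, also called mimecan. Ogn (probe set 10405063) had log2 values of 4.37, 4.32 and 4.25 in T3 samples, against 3.85, 3.97 and 4.04 in controls. It was the only member called as higher, by 0.36 ± 0.08 (SE) on the log2 scale, with an interval from 0.19 to 0.54 and adjusted p = 0.046 (limma). The call was lost without any 1 array, with adjusted p from 0.0557 to 0.206, and also after centring the arrays on their medians (adjusted p = 0.0628) or 75th percentiles (0.081). Epyc encodes epiphycan, a proteoglycan of growth plate cartilage. Its log2 values were 3.97, 4.13 and 4.14 in T3 samples, against 4.34, 4.48 and 4.59 in controls, again without overlap. The log2 change of -0.39 ± 0.09 (SE) was close to that of Bgn and did not pass (adjusted p = 0.0583, limma), but passed after centring on the median, after centring on the 75th percentile and with array quality weights. Without detection calls, Ogn and Epyc, like Omd, are not known to be above background. Background signal narrows the differences that an array shows for weakly hybridising probes. The changes of Ogn, Epyc and Omd can thus be understated where the signal is that of these genes.

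**Figure D2:**
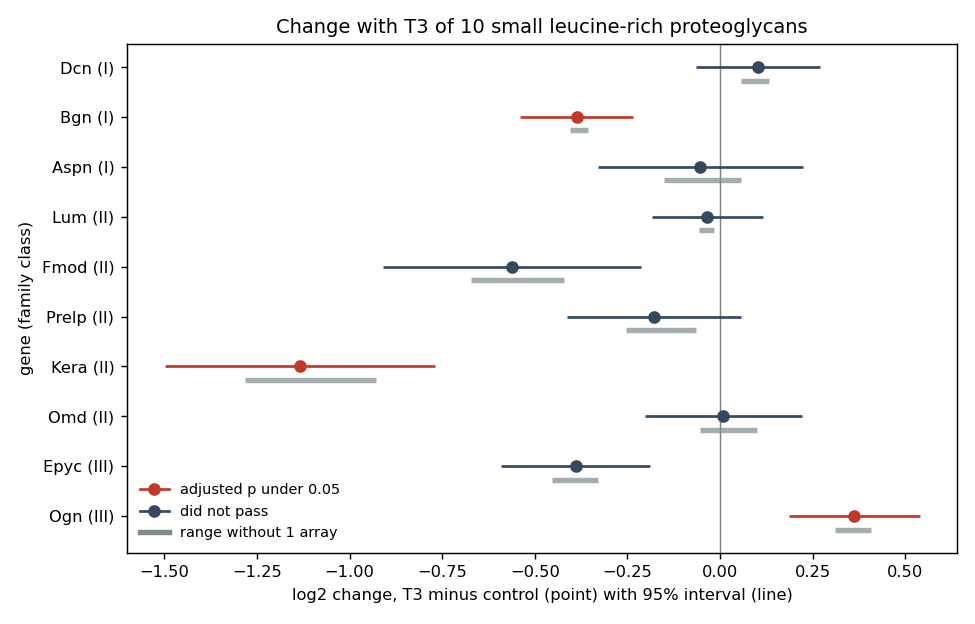
Log2 change, T3 minus control (x axis), of each of the 10 genes (y axis, with family class); points are limma estimates, lines are 95% intervals and grey bars show the range when 1 array was left out. Kera at -1.13 and Bgn at -0.39 lie below 0 and Ogn at 0.36 above it, and the interval of Fmod is as wide as -0.91 to -0.21.

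Most members lie beside each other in the genome. In the RefSeq gene table of assembly GRCm38.p6, Dcn, Lum, Kera and Epyc were consecutive protein-coding genes, as were Ecm2, Aspn, Omd and Ogn, and Optc, Prelp and Fmod. Bgn stood alone. Ecm2 and Optc are relatives outside the 10 members. The estimated changes of neighbours differed in size, and such differences were tested only for the pairs of Kera given below. Those of Epyc, Omd and Ogn can be understated, as given above. Along the Dcn run the log2 changes were 0.10 for Dcn, -0.03 for Lum, -1.13 for Kera and -0.39 for Epyc. Along the Ecm2 run they were -0.07 for Ecm2, -0.05 for Aspn, 0.01 for Omd and 0.36 for Ogn, and along the Optc run -0.14 for Optc, -0.18 for Prelp and -0.56 for Fmod.

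Kera was compared with the 3 others of its run by taking the difference of log2 values within each array, which removes any shift common to an array. Kera minus Lum was -4.95, -4.17 and -4.36 in T3 samples, against -3.40, -3.37 and -3.42 in controls. Its mean was lower in T3 samples by 1.10, and Kera minus Dcn was lower by 1.24 and Kera minus Epyc by 0.75. In each pair the T3 and control differences did not overlap, and each gave p = 0.1 in an exact two-sided permutation test over samples, also after adjustment over the 3 pairs. This is the smallest p that this test can give with 3 samples against 3, so it could not reach 0.05 for these pairs. Lum and Dcn themselves changed by -0.03 and 0.10, so the differences largely restate the change of Kera given above.

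**Figure D3:**
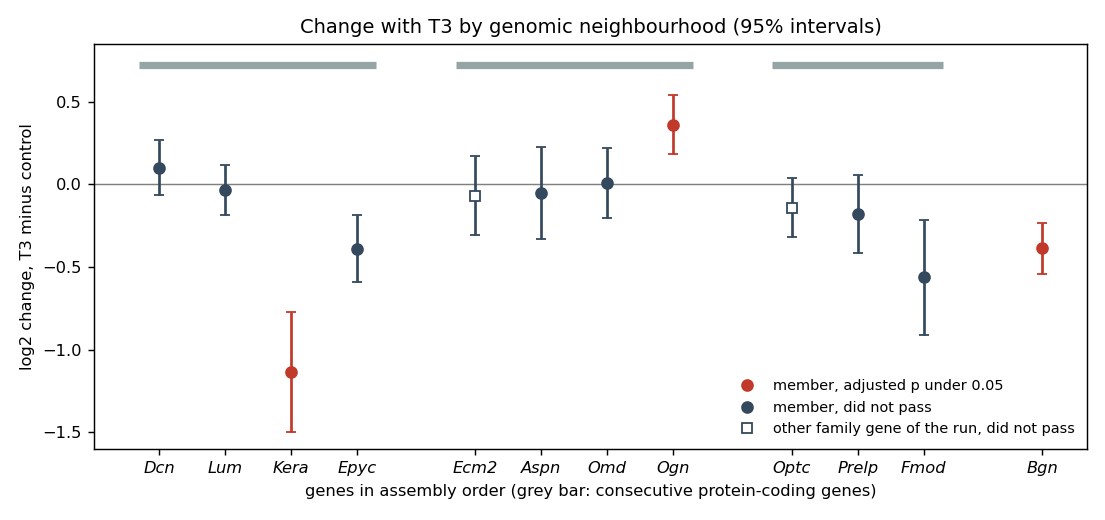
Log2 change, T3 minus control (y axis), with 95% intervals, for genes in their order in the mouse assembly (x axis); grey bars join consecutive protein-coding genes, filled circles are the 10 members and open squares are other family genes. Kera at -1.13 stands beside Lum at -0.03, and Ogn at 0.36 beside Omd at 0.01.

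The 250 bases before the start site are shown for the 3 called members and for Omd. Among members with a window, only that of Omd held the exact run AGGTCA, a half-site of the thyroid hormone receptor. The sequences are from RefSeq (GRCm38.p6, plus strand, 5′ to 3′). Capitals mark AGGTCA, a form of the receptor half-site, and TATAAA, the TATA box, each searched on both strands as an exact run. Variants of these motifs were not searched and are not marked.
Kera, chr10:97606955-97607204: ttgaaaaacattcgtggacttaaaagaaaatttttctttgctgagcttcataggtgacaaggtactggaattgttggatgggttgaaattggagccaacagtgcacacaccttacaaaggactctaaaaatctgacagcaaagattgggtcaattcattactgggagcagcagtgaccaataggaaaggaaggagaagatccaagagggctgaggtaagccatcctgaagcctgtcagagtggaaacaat
Bgn, chrX:73483351-73483600: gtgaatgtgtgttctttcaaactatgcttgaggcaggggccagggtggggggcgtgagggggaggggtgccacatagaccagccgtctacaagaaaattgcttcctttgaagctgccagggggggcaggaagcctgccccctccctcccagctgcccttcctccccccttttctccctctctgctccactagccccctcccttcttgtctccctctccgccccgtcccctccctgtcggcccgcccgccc
Ogn, chr13:49607765-49608014: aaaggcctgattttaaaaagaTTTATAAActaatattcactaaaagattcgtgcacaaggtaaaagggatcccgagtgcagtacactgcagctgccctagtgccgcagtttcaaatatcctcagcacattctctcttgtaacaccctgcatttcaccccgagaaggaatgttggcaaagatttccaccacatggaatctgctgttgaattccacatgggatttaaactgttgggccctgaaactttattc
Omd, chr13:49582212-49582461: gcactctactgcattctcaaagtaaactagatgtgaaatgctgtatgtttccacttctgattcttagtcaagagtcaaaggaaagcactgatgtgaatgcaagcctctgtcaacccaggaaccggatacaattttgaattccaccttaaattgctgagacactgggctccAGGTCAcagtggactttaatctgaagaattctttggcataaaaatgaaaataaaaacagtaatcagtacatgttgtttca
Windows were found for 8 of the 10 members, with none listed for Dcn or Lum. These 8 genes had 9 windows, as Epyc had 2. AGGTCA was in 1 of the 9, that of Omd, against 14.0% of all 32851 windows. TATAAA was in 2 of the 9, those of Ogn and Aspn, against 12.4%. In Ogn the capitals are 2 overlapping matches, 1 on each strand, that begin 229 and 227 bases before the start. In Omd, whose log2 change was 0.01, AGGTCA begins 80 bases before the start. The windows of Kera and Bgn held neither exact run, and they differed in composition, with 42.4% G and C in Kera and 64.4% in Bgn. A match is a run of letters and not a binding site, and the windows cover no distant element.

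The family's relatives, the collagens it binds and the enzymes that build its chains were described from lists chosen with earlier results known. Beside the counts of every list stand the shares over all genes. These were 3.10% called, 2.28% higher, 0.823% lower and 13.7% at an unadjusted p under 0.05. No other small leucine-rich proteoglycan was called in this fit (limma), though Podn passed with array quality weights (adjusted p = 0.0327). Of 8 measured, from Podn with a log2 change of -0.34 ± 0.11 (SE, adjusted p = 0.207, limma) to Nepn with 0.10 ± 0.09 (SE), 2 had a change above 0, and at an unadjusted p under 0.05 there was 1. The collagen list had 3 lower genes among 14, with a median log2 change of -0.19 against 0.01 over all genes. An unadjusted p under 0.05 was reached by 7 of the 14. Col12a1, a fibril-associated collagen, fell by 0.75 on the log2 scale, and Col6a3 and Col6a2, chains of the beaded collagen VI to which biglycan and decorin bind, fell by 0.66 and 0.42. Col6a3 had log2 values of 9.82, 9.71 and 9.78 in T3 samples, against 10.49, 10.43 and 10.38 in controls, without overlap and with adjusted p = 0.00271 (limma). The chains of the main fibrillar collagens did not pass. Col1a1 had a log2 change of -0.13, Col1a2 one of -0.24 and Col3a1 one of -0.04. Col6a3 and Col12a1 were called without any 1 array, and Col6a2 in 3 of the 6 such fits.

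Of the genes for the sugar chains, 1 fell and 1 rose. Of 22 enzymes of chondroitin and dermatan sulfate, 1 was lower and 21 did not pass, with a median log2 change of -0.02 and 7 genes at an unadjusted p under 0.05. The lower one was Chst3, which adds sulfate to chondroitin, at -0.43 ± 0.08 (SE, adjusted p = 0.0306, limma), and it was called in 1 of 6 fits without 1 array. Of 8 enzymes of keratan sulfate, 1 was higher and 7 did not pass, with a median of 0.03 and 3 genes at an unadjusted p under 0.05. The higher one was B3gnt2, which extends the sugar chain, at 0.52 ± 0.08 (SE, adjusted p = 0.0145, limma), called in 2 of 6 such fits. B3gnt2 had log2 values of 8.16, 8.04 and 8.03 in T3 samples, against 7.57, 7.67 and 7.43 in controls. A relation of B3gnt2 to Kera, whose product can carry keratan sulfate, was not tested.

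Among 19 genes whose products bind these proteoglycans, 5 were lower, 1 was higher and 13 did not pass, with a median log2 change of -0.04. An unadjusted p under 0.05 was reached by 9 of the 19, against 13.7% of all genes. Ccn2, a matricellular protein that decorin binds, fell by 1.72 on the log2 scale (adjusted p = 9.01e-05, limma). Met, Egfr and Kdr, receptor kinases to which decorin has been reported to bind, fell by 0.76, 0.64 and 0.41. The TGF-beta ligands moved apart, with Tgfb2 lower by 0.43 ± 0.07 (SE) and Tgfb3 higher by 0.55 ± 0.07 (SE), while Tgfb1 had a log2 change of 0.02. Tgfb3 had log2 values with a mean of 9.61 ± 0.04 in T3 samples and 9.06 ± 0.02 in controls (SD, n = 3 each). Ccn2, Egfr and Tgfb3 were called without any 1 array, Tgfb2 in 4 of 6 such fits, and Met and Kdr in 3 each.

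Enzymes that process the proteoglycans and mature collagen gave 1 higher and 1 lower gene among 15, with 6 at an unadjusted p under 0.05. P4ha2, a collagen prolyl hydroxylase subunit, rose by 0.45 and Plod3, a lysyl hydroxylase, fell by 0.39 on the log2 scale, called in 2 and 1 of 6 fits without 1 array. Bmp1, the protease that cleaves the leader of biglycan and of procollagen, had a log2 change of 0.02. None of 11 large and basement membrane proteoglycans was called (limma), with 6 at an unadjusted p under 0.05, against 13.7% of all genes. Those of smallest p were Spock2 at 0.42 ± 0.10 (SE, adjusted p = 0.0608, limma) and Agrn at -0.27 ± 0.06 (SE, adjusted p = 0.0699, limma), and Vcan, the large matrix proteoglycan versican, had a log2 change of -0.33.

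**Figure D4:**
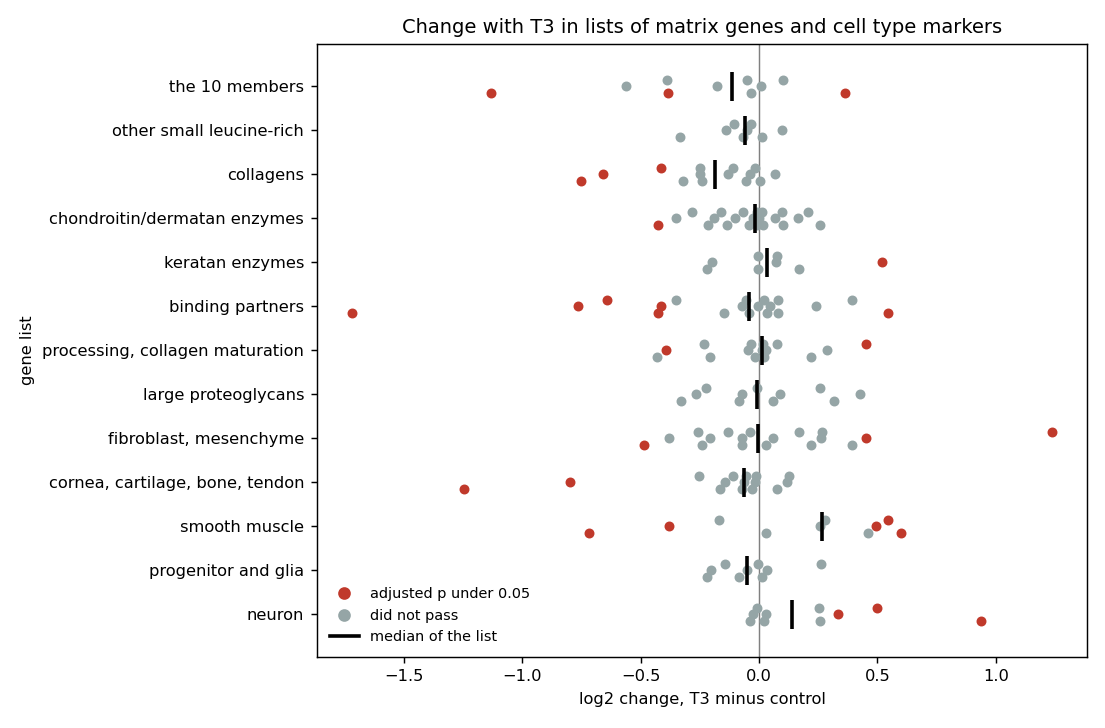
Log2 change, T3 minus control (x axis), of each measured gene (points) in the 10 members and 12 gene lists (y axis); red points were called at an adjusted p under 0.05 and black lines are list medians. The median is -0.12 for the members, -0.19 for collagens and 0.27 for smooth muscle markers.

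Markers of the cells that can make these proteins moved in part. Of the 18 fibroblast and mesenchyme markers, 2 were higher, 1 was lower and 15 did not pass, with a median log2 change of -0.01. An unadjusted p under 0.05 was reached by 8 of the 18, against 13.7% of all genes. Thy1, a surface protein of fibroblasts and neurons, rose by 1.24, Sfrp1, a secreted Wnt antagonist, by 0.45, and Twist1, a mesenchymal transcription factor, fell by 0.49 on the log2 scale. Thy1 was called without any 1 array, Sfrp1 in 4 of those 6 fits and Twist1 in 1. The means of this list, given above, overlapped between groups. Among markers of corneal stroma, cartilage, bone and tendon, where Kera, Epyc and Omd are best known, 2 of 15 were lower and 13 did not pass. These were Alx4, a homeobox gene of mesenchyme, at -1.25 ± 0.11 (SE) and Tnmd, the tendon protein tenomodulin, at -0.80 ± 0.15 (SE), called in 6 and 2 of the 6 fits without 1 array. The mean log2 value of this list was 5.80 to 5.82 in T3 samples and 5.88 to 6.12 in controls, without overlap. Its median log2 change was -0.06, and the 13 genes other than Alx4 and Tnmd did not pass. The list was dim, with a mean of 5.99 over the controls, below the array medians, and its dimmest gene at 4.34. Without detection calls, its dim genes are not known to be above background. At an unadjusted p under 0.05 there were 3 of the 15. The part of these markers in the change of Kera was not tested. The corneal marker Aldh3a1 had a log2 change of -0.02 at a control mean of 5.07, below the array medians.

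The other cell type lists gave values on both sides of 0. Of 10 smooth muscle markers, 3 were higher, 2 were lower and 5 did not pass. At an unadjusted p under 0.05 there were 8 of the 10, against 13.7% of all genes. The list mean was 7.54 to 7.62 in T3 samples and 7.39 to 7.54 in controls. Tagln fell by 0.72 and Acta2 by 0.38, and Myh11, Myocd and Myl9 rose by 0.60, 0.54 and 0.50 on the log2 scale. Tagln was called without any 1 array, Acta2 and Myh11 in none of those 6 fits, Myocd in 2 and Myl9 in 1. Of 10 neuron markers, 3 were higher, Prph by 0.94, Nos1 by 0.50 and Snap25 by 0.33, and 7 did not pass. At an unadjusted p under 0.05 there were 5 of the 10. Prph was called without any 1 array, Nos1 in 1 of those 6 fits and Snap25 in 0. The neuron list mean was 10.02 to 10.10 in T3 samples and 9.75 to 9.91 in controls, without overlap. Its median log2 change was 0.14. Of the 7 that did not pass, Syt1, Uchl1, Chat, Elavl4 and Tubb3 had changes from -0.04 to 0.03. Stmn2 and Vip had changes of 0.25 and 0.26. The part of the neuron markers in the changes of Kera, Bgn and Ogn was not tested. None of the 9 progenitor and glia markers was called (limma), with 1 at an unadjusted p under 0.05, against 13.7% of all genes. The 2 of smallest p were Ret with a log2 change of 0.26 and Gfap with one of -0.20.

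The genes most like each called member were found by Pearson correlation of log2 values over the 6 arrays, which share the T3 effect and any array-wide shift. For Kera these were Cecr2 (r = 0.999), Disp1 (r = 0.997) and Chrdl1 (r = 0.996), with log2 changes of -0.36, -0.08 and -0.65. Disp1 did not pass (adjusted p = 0.732, limma), so a high r over 6 arrays came with changes of quite different size. For Bgn they were Ecm1, Insm1 and Egfr (r = 0.998, 0.998 and 0.997), with log2 changes of -0.40, -0.37 and -0.64. For Ogn they were Pcdh11x, Ptcd1 and Slc9a4 (r = 0.996, 0.995 and 0.994), with log2 changes of 0.78, 0.17 and 0.23. The correlation was above 0.9 for 420 genes with Kera, 422 with Bgn and 679 with Ogn. It was below -0.9 for 640, 701 and 261 genes.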

How the data were processed

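The authors deposited log2 expression values for 35556 probe sets, with RMA and Partek 6.5 named in the submitters' processing notes. For the settings of RMA, and likewise for the build of the probe mapping, nothing was given in the sources used here. Groups came from the sample titles, and each of the 6 arrays was 1 sample. Between-array normalization removes changes common to most genes.

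In the platform annotation 21789 probe sets had 1 symbol and 1621 had several, and 12146 were not listed. Genes with more than 1 probe set (999) were represented by that of highest mean, which left 19938. T3 minus control was fitted with limma 3.58.1 in R 4.3.3 (lmFit, eBayes, no trend, no filter) as a two-sided test, adjusted by Benjamini-Hochberg across the 19938 genes. The procedure was tested on simulated data.

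The members, lists and motifs were chosen with earlier results of these data known. Named were all members, Klf9 and Hr, every called gene of a list or otherwise the 2 of smallest p, and the 3 genes most correlated with each called member. Chosen after their values were seen were Nepn, Ecm2, Col1a1, Col1a2, Col3a1, Bmp1, Tgfb1, Vcan and Aldh3a1. So were the neuron markers Syt1, Uchl1, Chat, Elavl4, Tubb3, Stmn2 and Vip. Listed genes that no probe set named alone were not analysed here. No 2 arrays were duplicates: the SD of the difference over genes was 0.137 to 0.243 within groups.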

Additional observations from a re-analysis of the deposited data

How the results depend on the processing

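With 618 genes, 3 members and 26 other listed genes called at first, leaving out 1 array in turn gave 191 to 640 genes, 1 to 2 members and 10 to 23 listed genes. Array quality weights gave 3548 genes, 5 members (Bgn, Fmod, Kera, Epyc and Ogn) and 64 listed genes; the cause was not tested. An adjusted p under 0.1 gave 962 genes and 4 members, and one under 0.01 gave 199 genes, 1 member (Kera) and 9 listed genes, by construction. Kera and Bgn were called under all 9 other settings of scaling, filter, probe set choice, moderation, weights or replicate block. Of the 26 called list genes, 18 were called under every such setting that kept them. The other 8 lost the call under at least 1: Myh11 under 3 of 8, Snap25 under 3 of 9, Myocd under 2 of 8, and Plod3, Twist1, Acta2, Myl9 and Nos1 under 1 of 9 each. Of 6 named list genes that were not called, 4 passed under some: Agrn under 5, Spock2 under 4 and Ret under 2 of 9, and Podn under 1 of 8. Ogn was called in 4 of the 7 that kept it, since the filters on dim genes removed Ogn, Epyc and Omd. The change of Omd reversed after centring each array on its median (-0.0173) or its 75th percentile (-0.0213), and ran from -0.0546 to 0.1005 without 1 array. That of Aspn reversed to 0.0122 with array quality weights and ran from -0.1513 to 0.0568 without 1 array. Kera minus Lum, Dcn and Epyc kept its direction under quantile normalization and without any 1 array, with changes from -1.26 to -0.87, -1.40 to -1.0 and -0.87 to -0.59. No member has a further probe set, so single probe sets could not be compared. Same-numbered T3 and control arrays had deviations correlated at 0.18, 0.02 and 0.0002, and differently numbered ones from -0.18 to 0.11. Deviations from a mean of 3 arrays depend on each other, so this check cannot exclude pairing. The labels do not say that the numbers are pairs, so the main fit used none. With the replicate number as a block, 2 members were called (Bgn, adjusted p = 0.0495, and Kera), Ogn had adjusted p = 0.102, and the paired changes of Kera minus its neighbours had p = 0.25, the smallest an exact sign-flip test of 3 pairs allows. Only 3 arrays per group limit the precision, and without detection calls the dim members have no known signal over background.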
